A study of Mus musculus with 7 samples.

Results

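Tuft1 and the genes of its 2 reported binding partners, Tfip11 and Rabgap1, were followed in whole mouse skin. The 3 genes were taken by symbol from a table of 56691 genes, and all 3 had enough counts to be among the 12888 genes tested. RNA came from skin of 3 mice labelled KO (knockout mice 2, 3 and 4; skin that looked healthy) and of 4 mice labelled WT (wild-type mice 5, 6, 7 and 8; healthy skin), with 1 library per mouse. The knockout allele, the cells in which Tuft1 was deleted, and the strain, sex and age of the mice are not given in the sources used here. No treatment is given for either group. Below, wild-type mice are also called controls, and single values follow the order of the mouse numbers. The question that the design poses is which transcripts differ in skin without Tuft1.

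Tuftelin 1, the Tuft1 product, was first described in the matrix of developing tooth enamel and is made in many other tissues. The study names it a desmosome-associated protein, and desmosomes are the junctions that couple the keratin networks of neighbouring keratinocytes. Tuftelin-interacting protein 11, encoded by Tfip11, carries a G-patch, a glycine-rich motif that switches on RNA helicases. In the nucleus it works with the helicase DHX15 to take apart the spliceosome once an intron has been cut out. RABGAP1 carries a TBC domain, which speeds up GTP hydrolysis by Rab proteins, the switches of membrane traffic, and its binding to TUFT1 has been linked to signalling through the growth kinase complex mTORC1.

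Tuft1 transcripts were scarcer in every knockout library than in any wild-type library, Tfip11 was close to absent from the knockout libraries and erratic among the wild-type ones, and Rabgap1 was at similar levels in both groups. Levels are CPM, counts scaled to library size with trimmed mean of M values (TMM) factors, and are given as mean ± SD over 3 knockouts and 4 controls. Mean Tuft1 levels were 22.1 ± 6.23 CPM in knockouts and 94.9 ± 26.6 CPM in controls. Those of Tfip11 were 0.0431 ± 0.0747 CPM and 10.6 ± 10.7 CPM, and those of Rabgap1 were 88.6 ± 23.2 CPM and 93.7 ± 22.3 CPM. None of the 3 was called by edgeR's quasi-likelihood test at an adjusted p below 0.05, a threshold that 3 of all tested genes passed (0.0233%), 1 of them lower in knockouts (0.00776%). At an unadjusted p under 0.05 in the same test, Tuft1 and Tfip11 were among 555 genes (4.31%). Tfip11 had enough counts to be tested only through the wild-type libraries, so its place there supports nothing further. DESeq2 called Tuft1 alone of the 3 (1.02% of its genes were called, 0.661% as lower), and limma-voom called none of them (0.171% called). The libraries held 7009237 to 9256459 counts, without molecular identifiers in the sources used here, so counting intervals and limits cover counting error only. With 3 against 4 mice, an exact permutation test of a single value has 35 splits and cannot give a p below 0.0286.

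**Figure D1:**
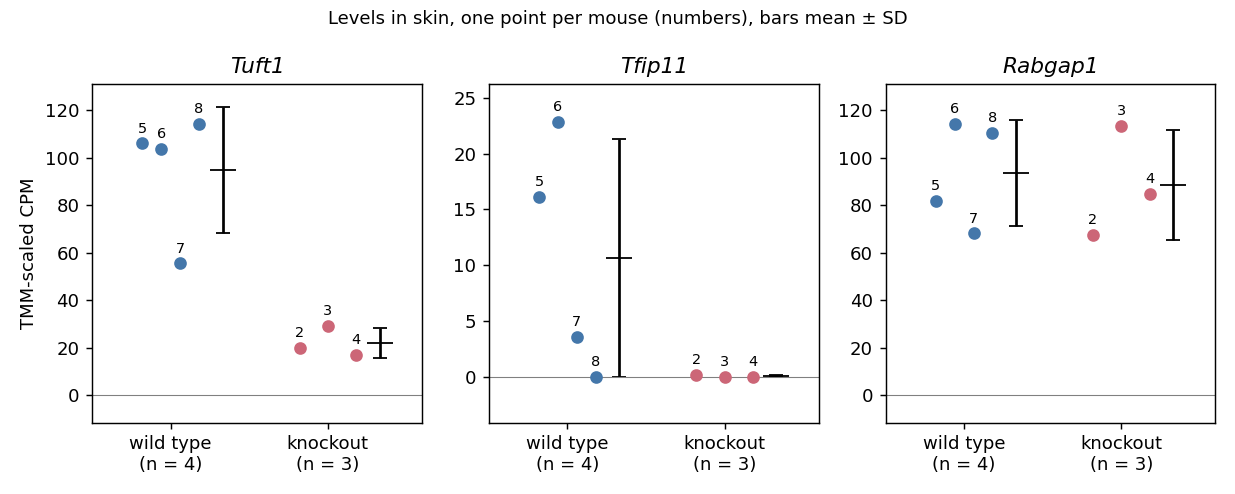
TMM-scaled CPM of Tuft1, Tfip11 and Rabgap1 (vertical axes, each with its own scale) in wild-type (blue) and knockout (red) skin; each point is a mouse with its number, and the bars give the mean ± SD. Tuft1 separates the groups, Tfip11 reaches 22.8 CPM in wild-type mouse 6 and 0 in wild-type mouse 8, and the Rabgap1 points of both groups overlap.

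Tuft1 (ENSMUSG00000005968.15) spans 94520064 to 94566179 of chromosome 3 (mm39, minus strand), with 13 exons in the counted gene model after overlapping exons are merged. Its counts were 154, 260 and 131 in knockout mice 2, 3 and 4, and 985, 923, 453 and 922 in wild-type mice 5, 6, 7 and 8. Scaled levels were 19.9, 29.1 and 17.2 CPM in the knockout mice, and 106, 104, 55.6 and 114 CPM in the wild-type mice. The groups did not overlap, as for 445 tested genes that were lower without overlap (3.45%) and 888 genes in either direction (6.89%). Wild-type mouse 7 was the lowest of its group and lay nearer to the knockout mice than the other wild-type mice did. The relative spread was alike in both groups, with an SD of 28.2% of the mean in knockout and 28.0% in wild-type skin.

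The log2 fold change of Tuft1 was -2.10 (SE 0.39, edgeR adjusted p = 0.172), with a 95% interval from -2.95 to -1.25. This corresponds to 0.233 of the wild-type level, with bounds of 0.129 and 0.419. An exact two-sided permutation test of the CPM values gave p = 0.0571, and on log2 CPM, a scale chosen after seeing the data, p = 0.0286, the smallest possible. With any 1 mouse left out, the log2 fold change stayed between -2.35 and -1.96 and edgeR did not call the gene (adjusted p from 0.128 to 0.650). In contrast, DESeq2 (log2 fold change -2.09, adjusted p = 8.60e-06) and edgeR without a filter on low counts (-2.11, adjusted p = 9.24e-04) called it. The libraries read transcript 3' ends, so tags from a part of the gene that was not deleted would still be counted, and the 545 counts left in knockouts are no full check of the genotype.

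In bulk skin, fewer cells of a type and less RNA per cell cannot be told apart, so Tuft1 was also set against cell type markers. All 8 basal keratinocyte markers, among them Krt5, Krt14 and Trp63, were tested and detected, 4 above and 4 below a log2 fold change of 0, and their summed level was 7925 to 11325 CPM in knockouts and 7275 to 10134 CPM in controls. Log2 Tuft1 minus the mean log2 level of these markers was -4.08, -3.57 and -4.48 in knockout mice 2, 3 and 4. It was -2.16, -2.00, -2.65 and -1.58 in wild-type mice 5, 6, 7 and 8. The groups did not overlap on this scale either, with means that differed by -1.95 (exact permutation p = 0.0286). Against suprabasal markers, such as Krt1 and Krt10, the difference was -1.72 (exact permutation p = 0.0571), and wild-type mouse 7, at -3.07, was again nearest to the knockout range of -3.93 to -3.60. The summed level of the suprabasal markers was 7344 to 11394 CPM in knockouts and 10854.5 to 13007.5 CPM in controls. The groups overlapped, with knockout mice 3 and 4 below every wild-type mouse.

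Fat cell markers were lower together with Tuft1. All 7, including the adiponectin gene Adipoq, had a log2 fold change below 0 (median -1.47), and none was called by edgeR. Their summed level was 2253 to 3655 CPM in knockouts and 6047 to 10714 CPM in controls, with wild-type mouse 7 the lowest of its group. Relative to these markers, a comparison chosen after seeing the data, log2 Tuft1 was -3.67, -3.01 and -3.28 in knockout mice 2, 3 and 4, and -2.50, -3.07, -2.85 and -2.48 in wild-type mice 5, 6, 7 and 8. The groups then overlapped, because wild-type mouse 6 lay within the knockout range, and the means differed by -0.59 (exact permutation p = 0.0857). The part of fat content in the Tuft1 result was not tested. Endothelial markers were also lower together with Tuft1, with 4 of 5 below 0 (median -0.92). Their mean log2 level was 3.49 to 3.68 in knockouts and 4.202 to 5.10 in controls, again with wild-type mouse 7 the lowest of its group. Their summed level, 122 to 149 CPM in knockouts and 135 to 235 CPM in controls, overlapped. Melanocyte markers lay the other way, with summed levels of 45.3 to 71.3 CPM in knockouts and 1.35 to 36.3 CPM in controls. All 4 tested were above 0 (median 1.25), and 1 of 6 was at 0 in every library. Their mean log2 level, 1.55 to 3.46 in knockouts and -1.38 to 2.09 in controls, overlapped. All 4 tested erythrocyte markers were below 0 (median -0.95), at 250.1 to 758 CPM and 456 to 1451 CPM with overlap, and Alas2 was at 0 in every library. The part of these cell types in the Tuft1 result was not tested either, and no member of any marker list was called by edgeR. Sebocyte markers were at 399 to 580.2 CPM in knockouts and 298 to 463 CPM in controls, and immune cell markers at 176 to 400.2 CPM and 183 to 298 CPM. Summed levels in knockouts and controls were 11183 to 29969 CPM and 10724 to 18277 CPM for fibroblasts, and 13640 to 22249 CPM and 13200 to 18519 CPM for skeletal muscle. Hair shaft and inner root sheath markers, of which 1 of 16 was tested, were at 859, 0 and 10.3 CPM in knockout mice 2, 3 and 4. In controls they ranged from 0 to 9.41 CPM, so only knockout mouse 2 stood far above them. The highest fibroblast level was also that of knockout mouse 2.

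The 5 tested genes whose profile over the 7 libraries was most like that of Tuft1 were Tmed5, Adipoq, Psmg3, Lpl and Dgat2. Likeness was the root mean square difference of log2 CPM after each gene was centred on its mean. It was 0.37 for Tmed5, a cargo receptor gene of the early secretory pathway, 0.42 for Adipoq and Psmg3, 0.43 for Lpl and 0.44 for Dgat2, against a median of 1.20 over 6474 genes. Lpl and Dgat2 encode enzymes of triglyceride uptake and synthesis. Tmed5 was at 30.3, 37.9 and 13.9 CPM in the knockouts, against 113, 72.5, 67.1 and 98.1 CPM in the controls. All 5 genes separated the groups without overlap, which follows in part from choosing them by likeness to Tuft1, and none was called by edgeR (lowest adjusted p = 0.0905, for Dgat2). Without the filter on low counts edgeR called Tmed5, Adipoq, Lpl and Dgat2, as did DESeq2.

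**Figure D2:**
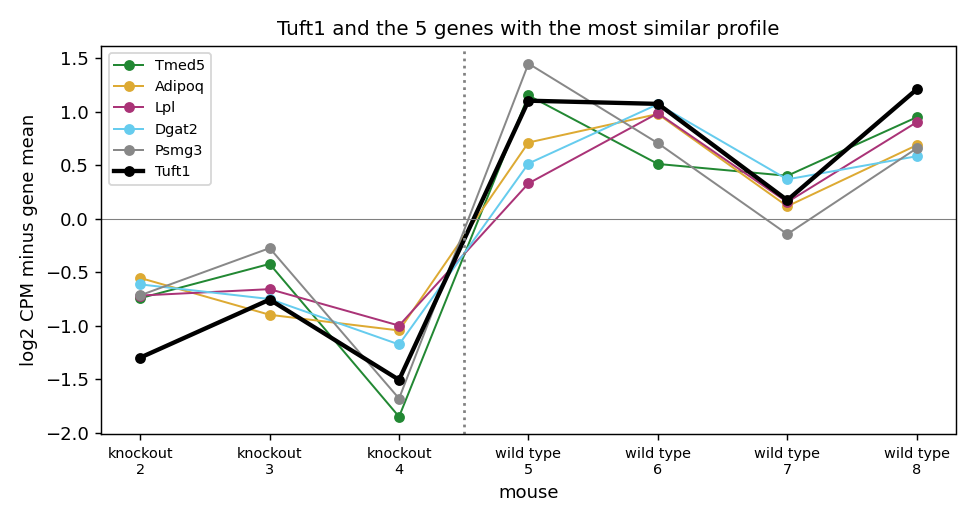
Log2 CPM minus each gene's mean over the 7 libraries (vertical axis) for Tuft1 (thick black line) and the 5 genes nearest to it, by mouse (horizontal axis; the dotted line divides the groups and the lines only join points of a gene). All 6 genes lie below their mean in the 3 knockout mice, and wild-type mouse 7 is lowest of its group for Tuft1, Adipoq, Lpl, Dgat2, Psmg3 and Tmed5.

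None of the genes around Tuft1 passed the test. Of 67 genes lying within 500 kb of it, 28 had counts and 18 were tested, and edgeR called none of them (0 at an unadjusted p under 0.05; DESeq2 and limma-voom also called 0). Their median log2 fold change was -0.15, beside -0.01 over all genes tested, with 7 above and 11 below 0. Cgn, the gene of the tight junction protein cingulin and the nearest expressed gene on the high-coordinate side, starts 128 kb from the Tuft1 start and was at 194 ± 40.6 CPM in knockouts and 217 ± 28.6 CPM in controls (log2 fold change -0.16, 95% interval -0.67 to 0.35). On the other side the nearest gene with at least 10 counts was the pseudogene Rpl31-ps11, which was not tested. Snx27, a sorting nexin gene of endosomal recycling that is named after its values were seen, lies 30.04 kb from Tuft1 and averaged 55.4 ± 17.4 CPM in knockouts and 54.4 ± 22.9 CPM in controls (log2 fold change 0.03). The smallest p values were those of Vps72 (134 ± 18.1 CPM in knockouts and 87.5 ± 26.9 CPM in controls), Psmb4 (108 ± 34.1 CPM and 148 ± 25.7 CPM) and Scnm1 (16.4 ± 14.2 CPM and 32.95 ± 12.6 CPM). Vps72, which encodes a subunit of histone-exchange complexes, was higher in the 3 knockout mice than in any wild-type mouse. It was the only 1 of the 18 without overlap, beside 6.89% of all genes.

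**Figure D3:**
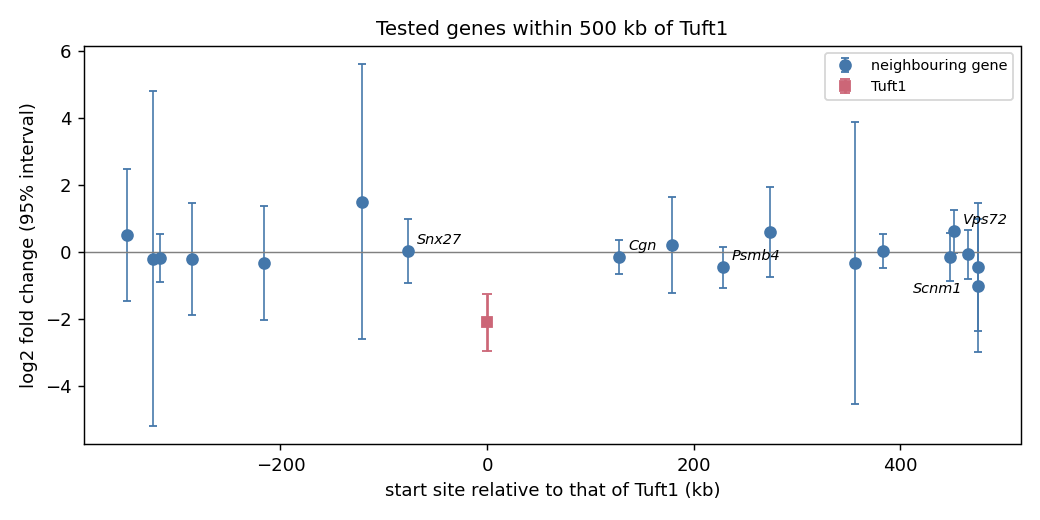
Log2 fold change of knockout over wild type with its 95% interval (vertical axis) for the 18 tested genes within 500 kb of Tuft1 (blue) and for Tuft1 (red), by distance of the start site from that of Tuft1 in kb (horizontal axis). The interval of Tuft1 lies below 0, and those of the 18 neighbours include 0.

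Tfip11 (ENSMUSG00000029345.14) lies on the plus strand of chromosome 5 at 112474224 to 112485939 (mm39) and has 14 merged exons. Its counts were 1, 0 and 0 in knockout mice 2, 3 and 4, and 150, 203, 29 and 0 in wild-type mice 5, 6, 7 and 8. The levels were 0.129, 0 and 0 CPM in the knockout mice, and 16.2, 22.8, 3.56 and 0 CPM in the wild-type mice. Wild-type mouse 8 was therefore as low as the knockout mice, and the groups overlapped. A count of 0 allows up to 0.371 CPM in that library, taking 3 counts as the limit for counting error only.

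Over the pooled counts, wild-type skin had 269 times the Tfip11 level of knockout skin, with a 95% counting interval (exact Clopper-Pearson) of 48.1 to 10667. The ratio rests on the 1 count of knockout mouse 2, without which no ratio could be given, and 203 of the 382 wild-type counts came from mouse 6. The interval leaves out the spread between mice, which was larger than the wild-type mean. The fitted log2 fold change was -7.54 (SE 3.00), a value that depends on the offset added to counts of 0. The exact two-sided permutation test of the levels gave p = 0.257, and edgeR's adjusted p was 0.9997 (unadjusted p = 0.0262). DESeq2 gave an adjusted p of 0.0575 and limma-voom one of 0.726. Such uneven counts were not rare, since 1876 of the tested genes (14.6%) had 0 counts in some wild-type library and at least 100 in another. A total of at most 1 count over the knockout libraries beside at least 100 in some wild-type library was found for 55 tested genes (0.427%). Without wild-type mouse 5, 6 or 7, Tfip11 no longer passed the filter on low counts and could not be tested. It passed only through the wild-type libraries, where it is high, so its difference and its unadjusted p support nothing further.

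The last exon of Tfip11, in which 3' tags of its annotated end fall, shares bases with Srrd, a gene on the opposite strand. Of the 1088 bases of that exon, 350 and 165 lie in exons of Srrd, the latter at the very end of the gene. Srrd had 0 counts in all 7 libraries. The sources used here do not say whether counting used strand, and without it reads from the 2 genes cannot be told apart there, so the level of Tfip11 is uncertain in both groups.

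Among the genes nearest to Tfip11 in profile were Btg2 and Fos, at root mean square differences of 1.81 and 1.88 log2 units against a median of 2.81. These differences are large, so the likeness is loose. Both are immediate early genes. Btg2 was at 51.8, 47.9 and 43.1 CPM in the knockouts, against 303, 180.2, 214 and 64.2 CPM in the controls. Fos was at 105, 14.2 and 126 CPM in the knockouts, against 565, 288, 459 and 113 CPM in the controls, with overlap. In both genes, as in Tfip11, wild-type mouse 8 was the lowest of its group. This follows in part from choosing both by likeness to Tfip11. Neither was called by edgeR (adjusted p = 0.329 and 0.793), and without the filter on low counts edgeR called both.

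No gene of a protein that acts with TFIP11 in releasing the spliced intron passed the test. Of 30 listed genes of the intron lariat spliceosome 28 were tested, and edgeR called 0, with 0 at an unadjusted p under 0.05 (DESeq2 and limma-voom called 0). Their median log2 fold change was -0.01, equal to that of all genes at this rounding, with 14 above and 14 below 0. Dhx15, the helicase that TFIP11 activates, was at 63.0, 87.0 and 135 CPM in the knockouts, against 94.96, 72.5, 51.1 and 55.0 CPM in the controls. The groups overlapped (log2 fold change 0.48, 95% interval -0.28 to 1.23). Gcfc2, the gene of another protein of this complex, had 0 CPM in knockout mouse 2 and in wild-type mice 5 and 7, 11.3 and 9.73 CPM in knockout mice 3 and 4, and 1.35 and 4.70 CPM in wild-type mice 6 and 8. Of the libraries at 0 for Gcfc2, wild-type mice 5 and 7 had 150 and 29 Tfip11 counts, and knockout mouse 2 had 1.

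Of the spliceosome genes with the smallest p, Plrg1, a core component of the Prp19 complex, was at 67.0 ± 13.6 CPM in knockouts and 39.1 ± 11.2 CPM in controls. Its groups did not overlap (edgeR adjusted p = 0.9997), the only 1 of the 28 tested genes of that list, beside 6.89% of all genes. Aqr, the helicase aquarius, was at 28.2 ± 9.09 CPM and 11.2 ± 8.41 CPM, and Snrnp200, the helicase that unwinds U4/U6, at 110.3 ± 27.9 CPM and 78.0 ± 29.7 CPM. Both overlapped between groups. Among 20 tested genes of other G-patch proteins, again 0 were called by edgeR (0 at an unadjusted p under 0.05, and 0 by DESeq2 and limma-voom), with a median of 0.18. Sugp1, Rbm5 and Rbm17, all splicing factor genes, had the smallest p, with log2 fold changes of -0.69, 0.29 and -0.27. That of Sugp1 was -1.62 without knockout mouse 2 and -0.28 without knockout mouse 4.

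Rabgap1 (ENSMUSG00000035437.16) lies on the plus strand of chromosome 2 at 37333291 to 37456466 (mm39), with 28 merged exons. Its counts were 522, 1013 and 645 in knockout mice 2, 3 and 4, and 759, 1014, 556 and 893 in wild-type mice 5, 6, 7 and 8. The levels were 67.6, 113 and 84.8 CPM in the knockout mice, and 81.7, 114, 68.2 and 110.5 CPM in the wild-type mice. The ranges of the groups were almost the same, from 67.6 to 113 CPM and from 68.2 to 114 CPM. The log2 fold change was -0.08 (SE 0.31, edgeR adjusted p = 0.9997), and the exact permutation p was 0.829. The 95% interval, from -0.74 to 0.59, spans levels in knockout skin from 0.597 to 1.501 times that of wild type. The data are compatible with differences within those bounds. The sign changed without knockout mouse 2 or wild-type mouse 6 or 8, within a range of -0.30 to 0.079 over the mice left out.

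Rabgap1 shares 118 exonic bases with Strbp on the opposite strand, far from the 3' end of Rabgap1, and 74 with Gpr21, which had 0 counts. Strbp had 2210 counts. If counting did not use strand, reads from Rabgap1 and Strbp cannot be told apart in the shared bases. The profile of Rabgap1 was nearest to those of Nuak1, a kinase gene, Mrpl57, a gene of the mitochondrial ribosome, and Emc1, which encodes part of a complex that inserts membrane proteins. Their root mean square differences were 0.11, 0.15 and 0.16 log2 units, against a median of 0.61. Nuak1 was at 161, 277 and 214 CPM in the knockouts, against 195, 227, 164 and 240.1 CPM in the controls. As with Rabgap1, its highest knockout level was in mouse 3 and its lowest wild-type level in mouse 7, which follows in part from choosing Nuak1 by likeness to Rabgap1.

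Rabgap1l, the closest relative of Rabgap1, varied far more between mice. It was at 11.3, 48.2 and 74.3 CPM in the knockouts, against 12.9, 38.4, 34.98 and 28.8 CPM in the controls. The groups overlapped (log2 fold change 0.63, 95% interval -0.72 to 1.99), and the value was 0.04 without knockout mouse 4. Of 38 other genes of TBC-domain proteins 35 were tested, and edgeR called 0 (0 called by DESeq2 and limma-voom). At an unadjusted edgeR p under 0.05 there was 1 of the 35, beside 4.31% of all genes. The median log2 fold change of the 35 was -0.10, also with the 1 gene that had 0 counts in a group set at its limit, and 22 were below 0. That gene was Tbc1d12, with 70, 79 and 20 counts in the knockout libraries and 0 in the 4 wild-type libraries. Its knockout mean of 6.85 CPM was at least 19.6-fold higher than the mean wild-type limit of 3 counts per library (edgeR adjusted p = 0.990). Tbc1d12 passed the filter on low counts only through the knockouts, so its difference, and its place as the list's 1 gene at an unadjusted p under 0.05, support nothing further. The same pattern of zeros was found for 22 tested genes, and the reverse one for 22 others. Tbc1d4, which restrains glucose transporter traffic, and Tbc1d2, a Rab7 regulator, followed at 30.8 ± 18.7 CPM in knockouts and 55.2 ± 32.5 CPM in controls, and at 5.04 ± 3.14 CPM and 17.9 ± 19.2 CPM. Of the Tbc1d2 control levels, 0.969, 45.4, 10.4 and 14.9 CPM, that of mouse 6 stood above the rest, and without it the log2 fold change was -0.81 in place of -1.83.

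Endosomal Rab genes and their effectors, the proteins on which TBC-domain proteins and their partners act, had 26 of 28 members tested. No member was called by edgeR, with 0 at an unadjusted p under 0.05 (0 called by DESeq2 and limma-voom), and the median was 0.07. Groups did not overlap for 3 of the 26, 2 higher and 1 lower, beside 6.89% of all genes. Rab8b, of secretory and recycling traffic, was at 13.1, 4.37 and 0 CPM in the knockouts, against 17.6, 32.4, 25.8 and 49.1 CPM in the controls. All 3 knockout values lay below the wild-type range (log2 fold change -2.42, SE 1.24, edgeR adjusted p = 0.9997). The size was unsteady, at -3.82 without knockout mouse 2, -1.84 without knockout mouse 4 and -4.18 with limma-voom. Rab11b, of the recycling endosome, was at 175 ± 16.9 CPM in knockouts and 129 ± 18.8 CPM in controls, without overlap. Rab11fip5, an effector of Rab11 proteins, was at 85.9 ± 40.4 CPM and 42.3 ± 29.6 CPM, with overlap.

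No gene of the mTORC1 pathway passed the threshold. Of 46 listed genes 45 were tested, and edgeR called 0 (0 by DESeq2 and limma-voom as well). At an unadjusted p under 0.05 there were 4, with 2 higher and 2 lower, or 4 of 45 beside the 4.31% of all genes. The median log2 fold change was -0.16, with 16 above and 29 below 0 (64.4% below, beside 50.5% of all genes). Groups did not overlap for 6 of the 45, 1 higher and 5 lower, beside 6.89% of all genes in either direction and 3.45% lower. Mtor, the kinase itself, was at 37.0, 37.7 and 26.4 CPM in the knockouts, against 63.7, 72.9, 83.1 and 49.9 CPM in the controls. Every knockout value lay below every wild-type value (log2 fold change -0.998, SE 0.37, 95% interval -1.80 to -0.20, edgeR adjusted p = 0.9997, exact permutation p = 0.0571).

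Rraga, a GTPase gene that brings mTORC1 to the lysosome, was at 106, 112 and 19.1 CPM in the knockouts, against 137, 133, 211 and 215 CPM in the controls. The groups did not overlap, and the mean difference leaned on mouse 4: without it the log2 fold change was -0.68 in place of -1.14. Eif4e, the cap-binding protein whose inhibitors mTORC1 phosphorylates, stood the other way, at 86.3, 100.03 and 74.8 CPM in the knockouts, against 32.6, 23.4, 69.8 and 53.0 CPM in the controls. Its groups did not overlap either (log2 fold change 0.96, SE 0.40, edgeR adjusted p = 0.9997). Rps6kb1, the S6 kinase gene named after its values were seen, was at 57.5 ± 38.9 CPM in knockouts and 26.9 ± 5.12 CPM in controls.

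**Figure D4:**
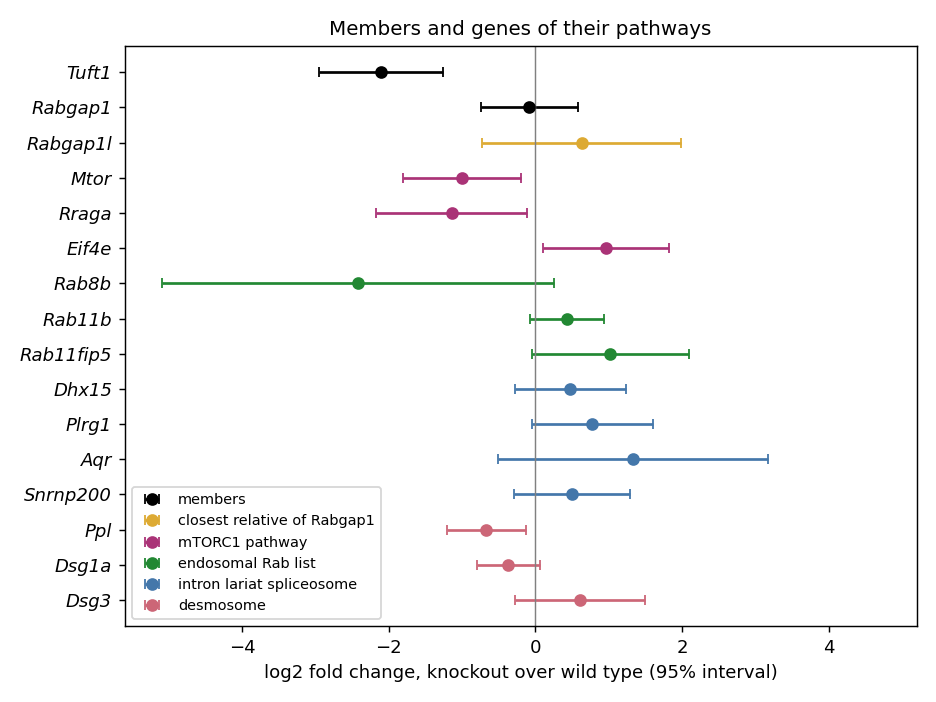
Log2 fold change of knockout over wild type with its 95% interval (horizontal axis) for Tuft1, Rabgap1, Rabgap1l and genes named from the mTORC1, endosomal Rab, spliceosome and desmosome lists (rows, coloured by list). Among the 16 genes drawn, which do not include Tfip11, the intervals of Tuft1, Mtor, Rraga, Eif4e and Ppl leave out 0, and that of Rabgap1 spans it. The intervals are unadjusted, and edgeR called none of the 16. List genes other than Dhx15 have the smallest p of their lists, so intervals that leave out 0 follow in part from this choice.

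The fields in which tuftelin is best known were compared in the same way. Of 18 desmosome genes 16 were tested, and edgeR called 0 (0 called by DESeq2 and limma-voom). At an unadjusted edgeR p under 0.05 there was 1 of the 16, beside 4.31% of all genes. Of the 16, 12 were below 0 (75.0%, beside 50.5% of all genes), with a median of -0.26. Lower without overlap were 2 of the 16, Ppl and Perp, beside 3.45% of all genes. Perp, a desmosomal membrane protein gene named after its values were seen, was at 1003 ± 109.9 CPM in knockouts and 1205 ± 87.8 CPM in controls. The gene at an unadjusted p under 0.05 was Ppl, which encodes periplakin, at 202, 374 and 220.3 CPM in the knockouts, against 409, 399, 487 and 392 CPM in the controls. Dsg1a and Dsg3, which encode desmosomal cadherins, were at 390.2 ± 49.3 CPM in knockouts and 504 ± 51.4 CPM in controls, and at 70.9 ± 17.9 CPM and 46.6 ± 19.9 CPM. Both overlapped between groups.

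Of 14 enamel genes, 2 had counts, Fam20a and Fam83h, and 12, among them the amelogenin gene Amelx, had none in any library. Fam20a was at 8.48 ± 2.27 CPM in knockouts and 4.73 ± 3.18 CPM in controls, and Fam83h at 21.1 ± 6.76 CPM and 25.4 ± 8.59 CPM. Hypoxia response genes, listed because Tuft1 has been reported to respond to low oxygen, had 13 of 17 members tested. Neither list had a member called by edgeR, DESeq2 or limma-voom, or at an unadjusted p under 0.05 in edgeR. The hypoxia median was 0.09, and Slc2a1, the glucose transporter gene, was at 55.2 ± 39.5 CPM in knockouts and 89.0 ± 30.9 CPM in controls. Epas1 and Arnt, which encode subunits of hypoxia-inducible factors, were at 109 ± 27.4 CPM and 83.5 ± 17.1 CPM, and at 31.9 ± 15.0 CPM and 20.3 ± 15.1 CPM.

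**Figure D5:**
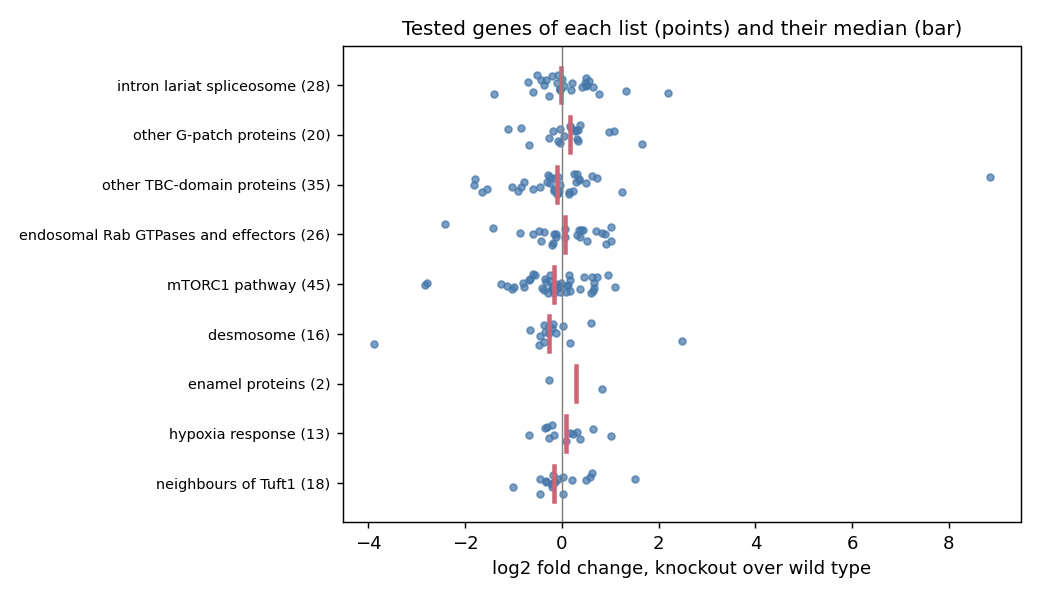
Log2 fold change of knockout over wild type (horizontal axis) of every tested gene (points, spread vertically at random) in each list, with the number tested in brackets and the median as a red bar. Medians lie between -0.26 (desmosome) and 0.29 (enamel proteins, 2 genes), and the point near 9 is Tbc1d12, whose fitted value against 0 counts is not a measured fold.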

How the data were processed

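RNA from powdered frozen skin was made into QuantSeq 3' libraries, per the labels' protocols, so counts do not grow with transcript length. The authors deposited raw counts for every gene. Tools listed in the submitters' processing notes, with no roles, are edgeR 3.36.0, Subread 2.0.3, featureCounts, GATK 4.2.4.0 and STAR, with build mm39. The sources used here do not state strand use in counting. The authors' second table holds log2 values for 12954 genes, and all 90678 were recovered from the raw counts as TMM log2 CPM with a prior count of 2 (tolerance 1e-09). It served only as an alternative set of genes. Exonic lengths were read from the raw table, where the deposited other column gives them in bases.

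Counts of the 7 libraries were fitted in edgeR 4.0.16 (R 4.3.3) with TMM factors, its expression filter at 10 counts and the quasi-likelihood F test, and p-values were adjusted (Benjamini-Hochberg) over 12888 genes. Standard errors come from the F statistic. The common biological coefficient of variation was 107.7%, and 3 of the 12888 genes were called. A gene or list that was not called is therefore not shown to be unchanged. Alternatives used RLE (DESeq2) and upper quartile factors, no filter, the authors' genes, DESeq2 1.42.0, limma-voom (limma 3.58.1) and leaving out each mouse. Log2 levels used a prior count of 2, and the permutation tests are two-sided. The procedure was tested on simulated data.

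Members and lists were chosen with earlier results of these data known. Named genes are the 3 members, of each list the called members or, with none called, the 3 with the smallest p, then Rabgap1l, Dhx15, Gcfc2, Mtor, the nearest neighbour on each side of Tuft1, and the most similar profiles (5 for Tuft1, 3 for the others) at a mean log2 CPM of at least 4 without predicted gene models. Mice are taken as replicates from the labels. No set test was run. Of the genes under this rule, 1 is not reported here. Genes printed outside it are marked in the text.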

Additional observations from a re-analysis of the deposited data

Results flagged for a closer look

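Values of 44 genes in the 4 wild-type mice were screened for a mouse far from the rest, and 4 were found, beside 2.2 from chance alone (about 1 in 20). For Tuft1 it was mouse 7, with a log2 CPM of 5.80 while the remaining controls spanned 6.70 to 6.84. For Snrnp200 it was mouse 5, with 5.13 while the range of the remaining mice was 6.45 to 6.69. Mouse 5 also stood apart in Fam20a, with -2.07 (0 counts) beside a range of 2.58 to 2.81. Mouse 6 did so in Fam83h, with 3.68 beside a range of 4.84 to 4.97.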

How the results depend on the processing

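The number of genes called was 3 with RLE or upper quartile factors and with the authors' genes, 76 without a filter, 125 with DESeq2 and 22 with limma-voom, and 0 to 1 with a mouse left out. Tuft1 was called without a filter (log2 fold change -2.11) and with DESeq2 (-2.09), and in no other setting, with values of -2.35 to -1.96 when a mouse was left out. Tfip11 was not called in any setting run; its value was -5.17 with limma-voom and -9.50 to -7.06 over the 4 fits with a mouse left out in which it was tested. Rabgap1 stood at -0.30 to 0.079, Nuak1 at -0.14 to 0.24 and Rbm5 at -0.15 to 0.50 with a mouse left out, each with a change of sign. Set against suprabasal markers Tuft1 differed by -1.72, and against fat cell markers, added after seeing the data, by -0.59, neither past the threshold, beside -1.95 against basal markers. The latter was -2.18 to -1.73 with a mouse left out, in designs too small to pass. On log2 CPM, also added, the permutation test of Tuft1 passed (difference -2.07). Among the other genes named in the text, Adipoq, Lpl and Dgat2 passed the threshold without a filter, with DESeq2 and with limma-voom, Tmed5 and Btg2 without a filter and with DESeq2, and Fos without a filter. Leaving out 1 mouse moved the log2 fold change by over 1.5 times, or changed its sign, for 25 of 44 named genes, none of them called with all mice, among them Dhx15 (0.13 to 0.70), Slc2a1 (-1.33 to -0.25) and Scnm1 (-1.64 to -0.45). The causes of these changes were not tested. List members called were 0 in edgeR with and without the filter and with DESeq2. No paired analysis was possible because no mouse number occurs in both groups. By depth, a count of 0 allows a level of up to 0.323 to 0.395 CPM by library.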
